A study of Mus musculus with 8 samples.

Results

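The response of Agps knockout cells to transforming growth factor beta (TGF-β) was read from 4 of the 8 libraries of the study, 2 of untreated knockout cells and 2 of the same cells after 10 days with TGF-β (2 ng/ml). Its members are all genes that passed a count filter, 14641 of the 55450 identifiers counted, of which 30946 had a count in any library. The cells are PyMT-1099, a mouse breast cancer line derived from a mammary tumour driven by polyoma middle T, and all groups were kept in serum-containing high glucose medium. The other 4 libraries hold parental cells of the same line, labelled wild type, 2 untreated and 2 with the same TGF-β treatment, and were used to ask where the knockout response differed. The untreated knockout cells, which carry the Agps disruption too, are the controls throughout. The labels do not say whether the knockout line is a single clone, nor whether replicate libraries were grown as separate cultures. The p-values therefore reflect the spread among these libraries alone, and that spread may be technical.

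TGF-β is a secreted cytokine that brings together a type II and a type I receptor kinase at the cell surface. The type I receptor phosphorylates SMAD2 and SMAD3, which enter the nucleus with SMAD4 and change transcription. In mammary epithelial cells a long exposure is known to set off epithelial to mesenchymal transition, in which cells lose junctions and apical polarity and make a fibroblast-like matrix and contractile fibres. Agps encodes alkylglycerone phosphate synthase, the peroxisomal enzyme that forms the ether bond of plasmalogens and other ether lipids.

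Knockout libraries held 17790157 to 21311831 counts and parental ones 17007268 to 19282972, and the 2 libraries of each group had correlations of 0.991 to 0.994 over genes. Agps itself (ENSMUSG00000042410, GRCm38 chr2:75832177-75931350) stood at 32.9 and 29.3 CPM untreated and 43.9 and 35.6 CPM with TGF-β, against 357 and 329.8 CPM untreated and 265 and 266 CPM with TGF-β in parental cells. The treated knockout libraries lay just above the untreated ones, a rise of 0.36 (standard error 0.11, adjusted p = 0.0247) that was not called without untreated replicate 2 (adjusted p = 0.151) or treated replicate 1 (adjusted p = 0.236), nor with the 4 knockout libraries fitted alone (adjusted p = 0.0573). The labelled tissue is breast, and the knockout cells held several epithelial transcripts at high levels, among them Krt8 and Krt18. The epithelial markers Epcam and Cldn7 had 0 counts in all 8 libraries, and Esrp1 and Cldn3 had 1 count each over all of them. The 20 leukocyte markers summed to 54.3 and 54.6 CPM untreated and 67.1 and 70.9 CPM with TGF-β. The macrophage receptor gene Csf1r, at 29.6 and 31.1 CPM untreated, and the endotoxin coreceptor gene Cd14, at 16.4 and 17.2 CPM, made up most of the untreated sum, while Tyrobp had 0 counts and Ptprc, which all leukocytes carry, had 5 counts over the 4 knockout libraries. The 20 fibroblast and pericyte markers summed to 9.79 and 9.04 CPM untreated and 246 and 244 CPM with TGF-β, and among them Thy1 had 0 counts and Fap 1 count over the same libraries.

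A large share of the transcriptome of the knockout cells changed with TGF-β, in nearly equal numbers of genes up and down. With edgeR's quasi-likelihood test and Benjamini-Hochberg adjustment over all genes tested, 6064 of the 14641 (41.4%) were called, meaning an adjusted p below 0.05, the threshold used for every gene said here to rise or fall. Of these 3053 were higher with TGF-β (20.9% of genes tested) and 3011 were lower (20.6%). Protein-coding genes were called somewhat more often, with 2797 higher and 2769 lower of 11907. The counts by gene list below are to be read against these shares. They leave out members that failed the count filter. A gene near 0 untreated could pass that filter through its treated libraries, which favours rises among the tested members of scarce lists. A change of at least 1 on the log2 scale, was passed by 2645 genes (18.1%), with 1340 higher (9.15%) and 1305 lower (8.91%), and their median absolute log2 fold change was 2.23. In each of the 6064 called genes both treated libraries lay outside the range of both untreated ones, but so they did in 10072 of all genes tested (68.8%). Over all genes the median log2 fold change was -0.0002, and the chromosome medians ran from -0.08 to 0.07. Levels below are CPM, counts relative to the TMM-scaled library size, given for replicates 1 and 2 of each group, and changes are log2 fold changes of treated over untreated knockout cells with their standard error. In bulk RNA, fewer cells of a kind and less RNA per cell cannot be told apart.

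**Figure D1:**
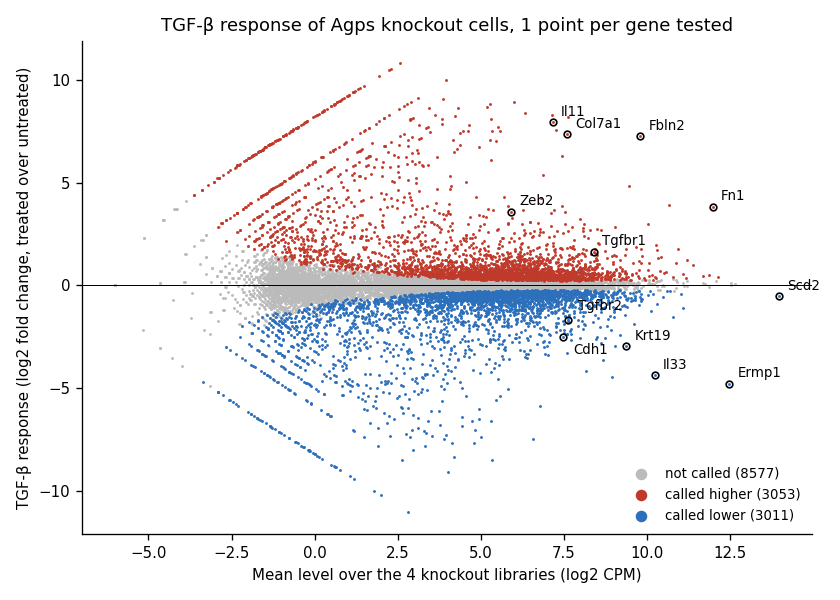
Each point is 1 of the 14641 genes tested, placed by its mean level over the 4 knockout libraries (log2 CPM, horizontal) and its TGF-β response (log2 fold change, vertical), with 3053 genes called higher in red, 3011 called lower in blue and the rest in grey. Fbln2 and Fn1 stand out at the upper right and Ermp1 and Il33 at the lower right, and the diagonal streaks at the left are genes with few or 0 counts in a group, whose fitted changes are not bounds.

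In CPM, which is not corrected for transcript length, the largest gain was that of Fn1, which encodes the matrix protein fibronectin (ENSMUSG00000026193, GRCm38 chr1:71585520-71653200), from 519 and 532 to 7556 and 7429.9 CPM, a change of 3.83 (standard error 0.12, adjusted p = 8.24e-10). Fbln2, which encodes the matrix protein fibulin-2, rose from 10.4 and 12.6 to 1662 and 1857 CPM. Fibulin-2 RNA was thus scarce in both untreated libraries and abundant in both treated ones. The other genes with the largest gains in CPM were Cald1, Flna and Myh9 of the actin cytoskeleton, the chaperone gene Clu, Thbs1 (thrombospondin-1), Vim (vimentin), Ccn2 (connective tissue growth factor), Ptgs2 (cyclooxygenase-2) and the small GTPase gene Rap1b. Ccn2 shares 23.2% of its exon length with an antisense gene, and the sources used here do not say whether the counting used strand.

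The largest loss in CPM was that of Ermp1, which encodes a metallopeptidase of the endoplasmic reticulum (ENSMUSG00000046324, GRCm38 chr19:29608214-29648415), from 11394 and 10557 to 371 and 410.4 CPM, a change of -4.81 (standard error 0.14, adjusted p = 8.24e-10). Both treated libraries lay far below both untreated ones. Il33, which encodes an alarmin cytokine, fell from 2216 and 2372 to 109 and 110.0 CPM. Lgals4, which encodes the lectin galectin-4 known from gut epithelium, fell from 931 and 965 to 39.6 and 46.8 CPM. The luminal keratin gene Krt19 fell from 1260.2 and 1076 to 139 and 159 CPM. Further large losses in CPM were those of Scd2 and Cyp51 of lipid synthesis, Cp (ceruloplasmin), Acsl4, Selenop (selenoprotein P), Sema3e (a semaphorin), Cdk6 and the predicted gene Gm42418, which overlaps other annotated exons over 99.5% of its length on the opposite strand. Scd2, a fatty acid desaturase gene, stood at 16817 and 20988 CPM untreated and 12471 and 13587 CPM with TGF-β and was not called without untreated replicate 2 (adjusted p = 0.091) or treated replicate 1 (adjusted p = 0.0943).

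By fold, the largest rises at a mean log2 CPM of 3 or more over the 4 knockout libraries were of transcripts scarce before treatment. That mean includes the treated libraries, so ranking by fold picks such genes, and their low start is not a separate result. Chrna1, the alpha subunit of the muscle acetylcholine receptor, went from 0.58 and 0.371 to 176 and 144 CPM, a change of 8.38 (standard error 0.20). Ctsw, a cathepsin known from cytotoxic lymphocytes, rose from 0.628 and 1.16 to 283 and 278 CPM. Tmem119, a membrane protein gene known from bone and microglia, went from 0.145 and 0.186 to 78.1 and 77.5 CPM. These 3 genes were at trace levels in both untreated libraries and well detected in both treated ones. The hyaluronan synthase gene Has2 rose from 0.386 and 0.139 to 139 and 117 CPM. F13a1, which encodes the A subunit of coagulation factor XIII, rose from 0.0483 and 0.278 to 69.7 and 74.2 CPM. The set also held Asic1, Speg, Postn, Megf10 and Ces1g. Ces1g, a carboxylesterase gene, had 1 count in the untreated libraries together, and the ratio of its treated to untreated level was 1320.0 (95% exact counting interval 236 to 52200.0). For Postn (periostin) the ratio was 710.0 (127 to 28100.0), for Megf10 621 (172 to 5140.0), for Asic1 460.0 (127 to 3810.0) and for Speg 346 (118 to 1680.0), and these intervals cover counting error only. Lsp1, a leukocyte protein gene, went from 0.145 and 0.0464 to 44 and 35.6 CPM and Adgra1, an adhesion receptor gene, from 0.193 and 0.0464 to 37.2 and 37.7 CPM. Has2, F13a1, Lsp1, Adgra1, Speg, Postn and Ces1g had 1 to 11 counts in the untreated libraries together. Their fitted changes are not given, since leaving out 1 untreated library moved them by over 1.5 times. All 7 genes stayed called with each untreated library left out in turn.

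The steepest falls at the same minimum level took transcripts to near 0, which the ranking by fold picks in the same way. Cyp2c65, a cytochrome P450 gene, fell from 59.4 and 51.6 to 0.253 and 0.277 CPM (-7.68, standard error 0.28). Slc4a1, the red cell anion exchanger, went from 21.8 and 17.6 to 0 and 0.166 CPM, a ratio of untreated to treated of 248 (95% exact counting interval 84.5 to 1200.0). Ugt2b36, a glucuronosyltransferase gene, went from 29 and 35.6 to 0.0506 and 0.0554 CPM, a ratio of 612 (169 to 5060.0). In none of these 3 genes did a treated library reach 1 CPM. Pik3c2g, a class II phosphoinositide kinase gene, fell from 65.1 and 60.9 to 0.253 and 0.499 CPM. The set also held Ugt2b35, Arhgap32, Clic5, Depp1, Dio3 and Ppp1r9a. Ugt2b35, Ugt2b36, Cyp2c65 and Ces1g belong to families of near-identical copies, among which the counting may divide reads differently.

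**Figure D2:**
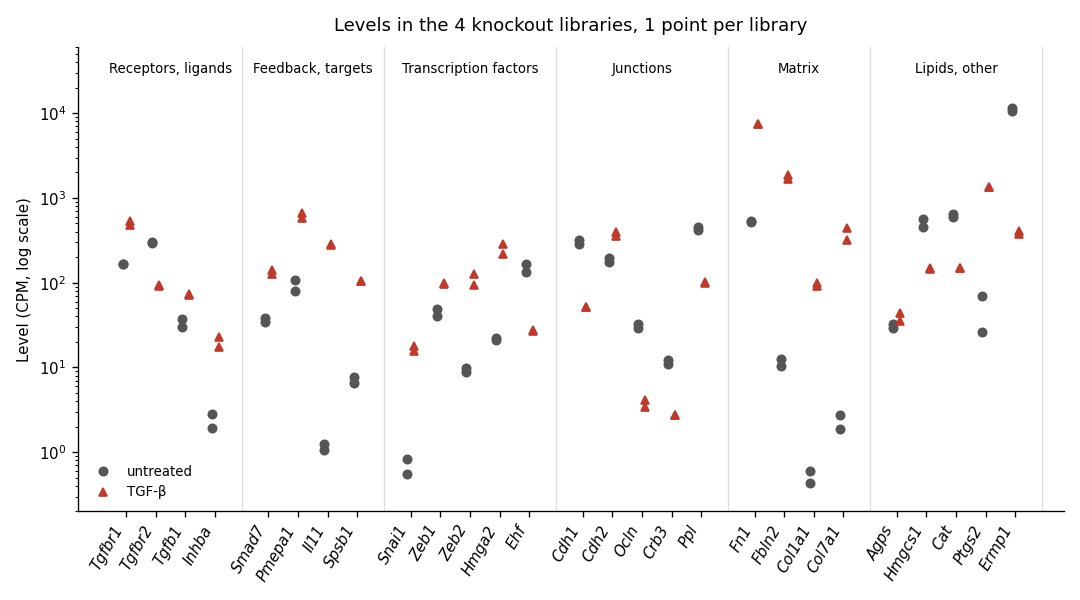
Levels (CPM, log scale) of genes described in the text in the 4 knockout libraries, with untreated libraries as grey circles and TGF-β libraries as red triangles, grouped by role. The circles and triangles of each gene do not overlap, as in each called gene and in 68.8% of all genes tested. Agps shows a narrow gap and Il11, Col1a1 and Fbln2 some of the widest.

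Among ligands and receptors of the TGF-β family, 10 of 22 tested genes rose and 9 fell, with a median change of 0.14. The type I receptor gene Tgfbr1 (ENSMUSG00000007613, GRCm38 chr4:47353222-47414931) went from 165 and 165 to 533 and 484 CPM, a rise of 1.62 (standard error 0.10, adjusted p = 1.07e-07). Its partner, the type II receptor gene Tgfbr2, went from 306 and 296 to 92.4 and 94.5 CPM, a change of -1.69 (standard error 0.09). The receptor pair thus moved in opposite directions, with no overlap between groups in either gene, as in each called gene. Of the ligands, Tgfb1 rose from 29.8 and 37.1 to 73.5 and 70.8 CPM. Tgfb2 fell from 53.7 and 52.4 to 36.8 and 33.4 CPM. Tgfb3 stood at 3.96 and 3.76 CPM untreated and 2.63 and 3.33 CPM with TGF-β and was not called (adjusted p = 0.255). Ligands of the activin and BMP branches divided too. Inhba, which encodes the activin A subunit, rose from 1.93 and 2.83 to 22.6 and 17.3 CPM. Bmp1, which encodes a procollagen protease rather than a true ligand, rose from 29.9 and 27.6 to 340.4 and 336 CPM. Bmp7 fell by 2.31, to 2.28 and 2.44 CPM, and the coreceptor gene Eng (endoglin) rose by 4.28, from 0.241 and 0.139 CPM.

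Of 20 tested genes of intracellular mediators and feedback inhibitors 11 rose, 1 fell and 8 were not called, with a median of 0.47. The signal transducer Smad3 was level, at 126 and 123 CPM untreated and 125 and 126 CPM with TGF-β (log2 fold change 0.01, adjusted p = 0.955). Pmepa1, which holds SMADs away from the receptor, rose from 108 and 79.5 to 668 and 577 CPM. Skil, which encodes the SMAD corepressor SnoN, rose from 172 and 206 to 561 and 502 CPM. Ldlrad4 rose by 2.68 and the activin antagonist Fstl3 by 2.24, although antisense genes overlap 52.1% and 47.3% of their exon length. The inhibitory SMAD gene Smad7 stood at 34.6 and 38.7 CPM untreated and 141 and 126 CPM with TGF-β, a rise of 1.87 (standard error 0.50) that was not called without treated replicate 1 (adjusted p = 0.0673). Id genes are targets of bone morphogenetic proteins, the related branch of the family. Id2 was the member of the list that fell, from 256 and 252 to 42.6 and 62.5 CPM. Id1 at 48.4 and 57.1 CPM untreated and 40 and 37.9 CPM with TGF-β was not called (adjusted p = 0.204), but was with the 4 knockout libraries fitted alone (adjusted p = 0.0148). Bambi, a decoy receptor gene, had 0 counts in the knockout libraries.

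Of 21 tested genes known as TGF-β targets, 14 rose and 4 fell (median 0.88). The cytokine gene Il11 went from 1.26 and 1.07 to 289 and 281 CPM, a change of 7.93 (standard error 0.15, adjusted p = 3.69e-11). Spsb1, which encodes an adaptor of a ubiquitin ligase, rose from 6.62 and 7.75 to 106 and 105 CPM. Against the name of the list, the integrin subunit gene Itgb6, whose protein activates latent TGF-β, fell from 46.2 and 44.9 to 12.6 and 11.4 CPM. Other known targets that fell were Ccn1, by 0.75, the AP-1 gene Jun, by 1.11, and the cell cycle inhibitor gene Cdkn1a, by 0.68. Tgfbi was near 0 in all 4 knockout libraries, at 0.145 and 0.139 CPM untreated and 0 and 0.0554 CPM with TGF-β. Of 19 listed genes of TGF-β storage proteins and elastic fibres 10 were tested, of which 8 rose and 0 fell. Their median was 5.19 (4.41 with the gene at 0 counts set to its bound). Ltbp1, a binding protein of latent TGF-β, went from 4.15 and 4.45 to 329 and 348 CPM (6.30, standard error 0.11), while Fbln5 had 0 counts.

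Transcription factors of epithelial to mesenchymal transition rose in 12 of 14 tested cases and fell in 1, with a median of 1.15. Zeb2, a zinc finger repressor of E-cadherin, went from 9.85 and 8.86 to 128 and 92.8 CPM, a change of 3.56 (standard error 0.16, adjusted p = 1.35e-08). Its relative Zeb1 rose from 40.1 and 48.6 to 97.7 and 100.2 CPM. The Snail gene Snai1, in the same class of repressors, rose from 0.821 and 0.557 to 15.6 and 18 CPM. All 3 repressor genes were thus higher in both treated libraries than in either untreated one. Such a gap between groups held in each called gene and in 68.8% of all genes tested. The architectural factor gene Hmga2 rose from 21.3 and 22.1 to 290.2 and 217 CPM. Ets2 was the member that fell, by 0.48, and Twist1 and Prrx1 had 0 counts in all 8 libraries.

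On the epithelial side, 7 of 12 tested regulators fell and 2 rose (median -0.43). Ehf, an ETS factor of epithelia, fell from 134 and 165 to 27.8 and 26.8 CPM, and the zinc finger factor gene Klf5 fell by 1.36. The splicing regulator gene Esrp2 stood at 32.7 and 28.9 CPM untreated and 23.7 and 21.6 CPM with TGF-β, a fall that was not called without untreated replicate 1 (adjusted p = 0.121), treated replicate 1 (0.0654) or treated replicate 2 (0.15). Rbfox2, a splicing factor of mesenchymal cells, rose by 0.50.

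**Figure D3:**
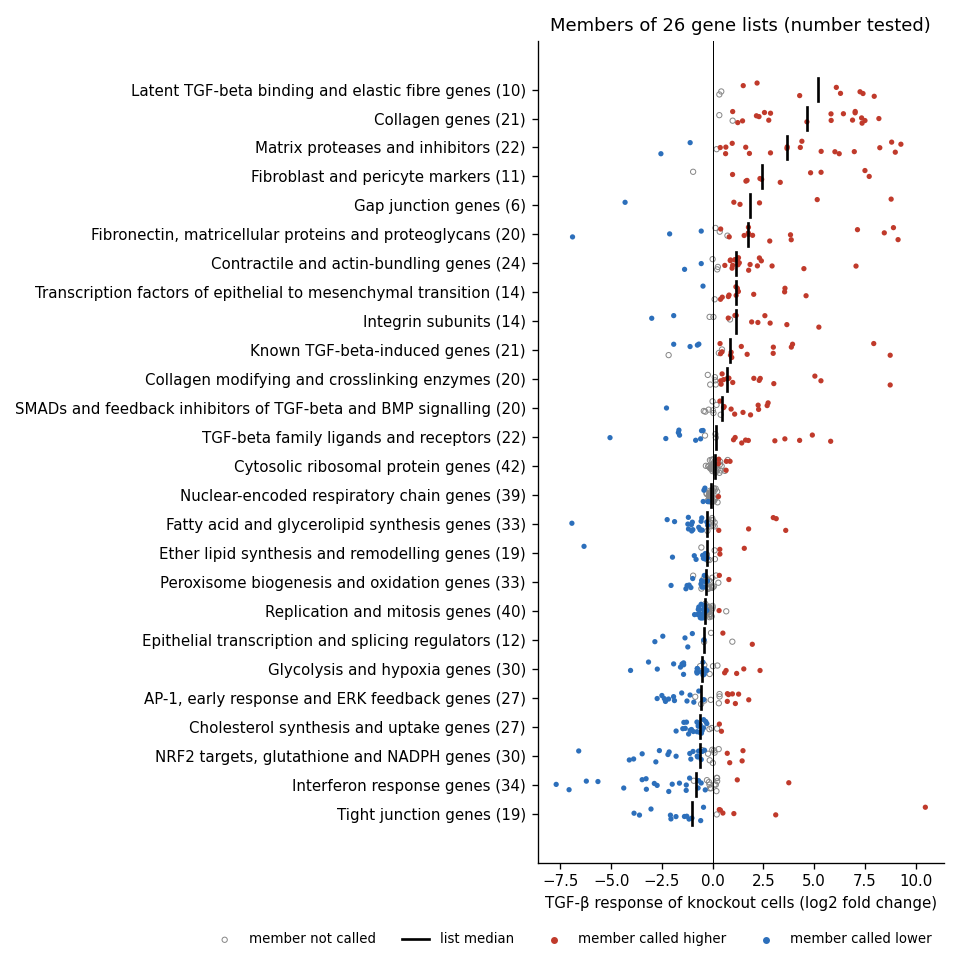
Log2 fold changes of tested members of selected gene lists in knockout cells (horizontal, treated over untreated), 1 row per list with the number tested in parentheses, ordered by list median. Red and blue points are members called higher and lower, open points were not called, and the black bar is the list median, which runs from 5.19 for latent TGF-β binding and elastic fibre genes to -1.02 for tight junction genes.

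Tight junctions seal neighbouring epithelial cells, and 12 of 19 tested genes of their proteins fell while 6 rose. The median change of -1.02 was the lowest of the lists in the plot by gene list. SNAIL and ZEB proteins bind the E-box sequence CACCTG, which reads CAGGTG on the other strand, and promoters of the list were searched for it. The 6 windows shown include the highest motif counts of the list and members that moved in both directions. They run from 250 bases before to 50 after the transcription start in the RefSeq promoter table for GRCm38.p6, 5′ to 3′ on the strand of the gene, with the motif on either strand in capitals. Crb3 lies at chr17:57061951-57062250 (plus strand), Patj at chr4:98395576-98395875 (plus), Lsr at chr7:30973420-30973719 (minus), Ocln at chr13:100552669-100552968 (minus), Marveld2 at chr13:100616922-100617221 (minus) and Cldn4 at chr5:134946885-134947184 (minus).
Crb3: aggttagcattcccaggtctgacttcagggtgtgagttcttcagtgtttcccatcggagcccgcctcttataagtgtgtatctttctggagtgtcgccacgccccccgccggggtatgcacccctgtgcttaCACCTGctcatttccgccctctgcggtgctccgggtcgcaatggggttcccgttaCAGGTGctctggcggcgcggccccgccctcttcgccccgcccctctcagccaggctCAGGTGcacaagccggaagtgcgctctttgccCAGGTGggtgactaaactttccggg
Lsr: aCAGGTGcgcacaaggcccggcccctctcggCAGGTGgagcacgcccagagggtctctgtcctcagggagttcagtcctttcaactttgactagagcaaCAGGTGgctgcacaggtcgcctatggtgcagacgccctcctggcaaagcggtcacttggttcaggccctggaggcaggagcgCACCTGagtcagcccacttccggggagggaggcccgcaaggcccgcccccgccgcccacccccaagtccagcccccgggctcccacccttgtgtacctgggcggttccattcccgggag
Patj: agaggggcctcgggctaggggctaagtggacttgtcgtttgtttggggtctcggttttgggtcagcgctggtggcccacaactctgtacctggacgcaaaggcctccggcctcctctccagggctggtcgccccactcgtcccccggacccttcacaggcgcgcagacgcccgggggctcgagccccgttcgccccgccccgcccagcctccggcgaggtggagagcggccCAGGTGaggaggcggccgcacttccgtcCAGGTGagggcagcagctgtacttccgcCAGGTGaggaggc
Ocln: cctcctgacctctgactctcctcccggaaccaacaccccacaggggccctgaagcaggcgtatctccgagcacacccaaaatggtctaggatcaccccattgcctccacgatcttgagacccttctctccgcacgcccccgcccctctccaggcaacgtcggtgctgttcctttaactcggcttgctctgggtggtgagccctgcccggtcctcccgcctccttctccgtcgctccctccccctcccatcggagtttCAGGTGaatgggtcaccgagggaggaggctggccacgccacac
Marveld2: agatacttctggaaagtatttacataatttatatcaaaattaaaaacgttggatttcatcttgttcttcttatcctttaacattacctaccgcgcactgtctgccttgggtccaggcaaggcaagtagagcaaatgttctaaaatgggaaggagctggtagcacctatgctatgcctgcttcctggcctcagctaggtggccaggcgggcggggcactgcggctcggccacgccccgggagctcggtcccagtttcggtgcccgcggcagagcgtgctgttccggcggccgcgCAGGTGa
Cldn4: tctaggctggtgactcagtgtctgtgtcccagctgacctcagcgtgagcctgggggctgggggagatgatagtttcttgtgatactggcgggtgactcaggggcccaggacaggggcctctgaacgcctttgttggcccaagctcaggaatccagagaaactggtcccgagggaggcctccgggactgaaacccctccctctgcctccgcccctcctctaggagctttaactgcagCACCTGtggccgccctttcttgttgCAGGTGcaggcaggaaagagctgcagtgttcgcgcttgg

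The windows of Crb3 and Lsr held 4 matches each, that of Patj 3, that of Cldn4 2 and those of Ocln and Marveld2 1 each. The RefSeq start of Crb3 lies 3096 bases from the outermost start of the gene in the annotation used here. Crb3, which encodes an apical polarity protein, fell from 11 and 12.1 to 2.73 and 2.72 CPM (-2.08, standard error 0.17). Ocln, which encodes occludin, fell from 29 and 32.4 to 3.39 and 4.1 CPM (-3.04, standard error 0.16). Marveld2, which encodes tricellulin, fell from 14.1 and 11.2 to 0.91 and 1.16 CPM. In each of these genes both treated libraries lay far below both untreated ones. The junction scaffold gene Tjp3 fell by 3.87. Lsr, of tricellular junctions, fell by 1.02 and the polarity scaffold gene Patj by 1.81. Both were chosen after their values were seen, and an antisense gene overlaps 44.7% of the exon length of Lsr.

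Against the direction of the list, the claudin gene Cldn4, with 2 matches in its window, had 0 counts in both untreated libraries and stood at 9.1 and 9.64 CPM with TGF-β, at least 132-fold higher (3 counts over the untreated group). Cldn2, a pore-forming claudin, rose from 285 and 367 to 674 and 670.0 CPM, and F11r, an immunoglobulin-like junction molecule, rose by 0.50. The motif was in 9 of 16 tight junction promoters in the table (56.2%), of which 7 belonged to genes that fell and 2 to genes that rose. Over the list itself 12 of 19 tested genes fell and 6 rose. Among all 9950 tested genes with a promoter the motif was in 17.2%, among genes called higher in 16.7% and among genes called lower in 19.7%. Among genes that fell by at least 1 the share was 25.3%, against 18.8% for rises of that size. It was 11.1% (1 of 9) among promoters of the cadherin and catenin list.

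The other motifs, none of which contains another, were searched on both strands too. The AP-1 site TGANTCA was in 5.37% of all promoters, in 11.3% of those of genes that rose by at least 1 and in 9.06% of those that fell by at least 1. The sterol element TCACNCCAC was in 1.06% of all promoters and in 1 of 19 (5.26%) of the cholesterol list. The CArG box of serum response factor was in 1.33% of all promoters and in 5 of 22 contractile ones (22.7%). Its share was 1.84% among genes that rose by at least 1 and 2.18% among those that fell by at least 1. A match describes only the letters of the window.

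Adherens junction genes divided. Cdh1, which encodes E-cadherin (ENSMUSG00000000303, GRCm38 chr8:106603351-106670246), fell from 287 and 317 to 52.3 and 52.4 CPM, a change of -2.53 (standard error 0.11, adjusted p = 1.18e-08). Cdh2, which encodes N-cadherin, rose from 195 and 175 to 392 and 358 CPM. The groups did not overlap in either gene, as in each called gene. The lower pair was the treated one for Cdh1 and the untreated one for Cdh2. Over the cadherin and catenin list 11 of 17 tested genes rose and 3 fell (median 0.57), the others that fell being Cdh16, by 1.61, and the beta-catenin gene Ctnnb1, by 0.44. Nectin4 rose by 3.40, from 0.676 and 0.742 CPM.

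Of 9 tested desmosome genes 5 fell and 3 rose (median -0.65). The desmoglein gene Dsg2 fell from 166 and 186 to 37.5 and 46.4 CPM. Ppl, which encodes periplakin, fell from 458 and 418 to 101 and 98.7 CPM. Perp, a membrane protein gene of desmosomes and a p53 target, fell from 77.1 and 79.7 to 13 and 15.5 CPM. Dsp (desmoplakin) fell by 0.65, while the plakophilin gene Pkp2 rose by 0.79.

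Neither gene of the simple-epithelial keratin pair was called: Krt8 stood at 832 and 759.9 CPM untreated and 872 and 903 CPM with TGF-β (adjusted p = 0.264) and Krt18 at 2127 and 2027 CPM untreated and 2171 and 2333 CPM with TGF-β (adjusted p = 0.361). Vim, the mesenchymal intermediate filament gene, rose from 1239.7 and 1124 to 2453 and 2596 CPM. In the filament list 9 of 16 tested genes rose and 4 fell (median 0.66, and 0.64 with the gene at 0 counts set to its bound). Besides Krt19, the basal keratin Krt5 fell, from 3.28 and 4.41 to 0.253 and 0.388 CPM. Its usual partner Krt14 rose from 0.193 and 0.418 to 11.1 and 9.09 CPM, a change of 5.01 that became 5.66 without untreated replicate 2, and Krt20 rose by 1.08.

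Among epithelial surface and polarity genes, 7 of 13 fell and 3 rose (median -0.34). Muc1, a membrane mucin gene, fell from 83.6 and 91.6 to 23.2 and 21.5 CPM. Spint2, which encodes a protease inhibitor, fell by 1.84 and Myo5b, an apical transport motor gene, by 0.86. The matriptase gene St14 went the other way, with 0 counts in both untreated libraries and 4.1 and 4.1 CPM with TGF-β, at least 57.7-fold higher. Of 13 gap junction genes listed 6 were tested, of which 5 rose (median 1.83). Gja1, which encodes connexin 43, had 0 counts untreated and 1.82 and 4.05 CPM treated, at least 40.6-fold higher. Gjb1 was the connexin that fell, from 4.44 and 6.31 to 0.253 and 0.277 CPM.

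Of 29 collagen genes listed 21 were tested, of which 19 were higher and 0 lower. Their median was 4.64 (2.85 with genes at 0 counts set to their bound). A gene near 0 untreated could pass the count filter through its treated libraries, so the tested members are not the whole family. Col1a1, the fibrillar type I chain, went from 0.435 and 0.603 to 91.2 and 99.8 CPM, a change of 7.50 (standard error 0.17, adjusted p = 1.35e-10). Col6a3, of microfibrils, rose from 1.45 and 1.25 to 339 and 451 CPM. Col7a1, of anchoring fibrils, rose from 2.75 and 1.9 to 444 and 320.1 CPM. All 3 chains were scarce in both untreated libraries. Of the chains of basement membranes, Col4a3 went from 9.8 and 7.75 to 47.6 and 37.6 CPM. Col4a4 went from 14.3 and 14.5 to 31.5 and 25.4 CPM.

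Of 20 genes for enzymes and helpers that modify or crosslink collagen, 15 rose and 0 fell (median 0.72). Plod2, a lysyl hydroxylase gene, rose from 85.3 and 118 to 520.0 and 477 CPM. The procollagen protease enhancer gene Pcolce2 rose from 1.64 and 1.11 to 46.3 and 44.1 CPM. The lysyl oxidase gene Lox had 0 counts untreated and 3.29 and 2.33 CPM with TGF-β, at least 39.9-fold higher. Its relative Loxl2, already at 56.5 and 65.5 CPM, was not called (adjusted p = 0.405).

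Of 35 other matrix genes listed 20 were tested, of which 14 rose and 3 fell (median 1.76). Beside Fn1 and Has2, the matricellular genes Tnc (tenascin-C), Thbs1 and Sparc rose by 1.55, 1.97 and 0.39. Tnxb (tenascin-X) fell from 41.5 and 53.2 to 8.75 and 13.1 CPM, and Sdc4, a syndecan gene, fell by 0.56. Laminin, basement membrane and hemidesmosome genes were split, 8 higher and 8 lower of 18 (median 0.23). The laminin chain Lamb1 rose from 5.07 and 5.48 to 74.5 and 64.6 CPM. The keratinocyte laminin chain Lamb3 rose from 102 and 108 to 261 and 324 CPM. The linker gene Nid2 fell from 12.5 and 11.8 to 0.506 and 0.277 CPM, and the hemidesmosome integrin gene Itgb4 fell by 0.47.

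Integrins are the receptors for this matrix, and 9 of 14 tested genes rose while 2 fell (median 1.13). The fibronectin receptor chain Itga5 went from 20.9 and 22.4 to 259 and 286 CPM (3.65, standard error 0.12). The vitronectin receptor chain Itgb3 rose from 44 and 60.8 to 382 and 364 CPM. Its partner Itgav rose from 449.6 and 513 to 1092 and 968 CPM. Beside Itgb6, the collagen receptor chain Itga1 fell, from 213 and 213 to 28.9 and 24.4 CPM. Itgb2, a chain known from leukocytes, rose from 0.483 and 0.371 to 16.9 and 15.6 CPM.

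Of 34 matrix protease and inhibitor genes listed 22 were tested, of which 19 were higher and 2 lower. Their median was 3.67 (3.25 with genes at 0 counts set to their bound). The membrane-bound Mmp14 rose from 45.2 and 46 to 159 and 161 CPM. The gelatinase gene Mmp2, whose product MMP14 activates, had 3 counts untreated and 9.76 and 9.76 CPM treated, a ratio of 137 (95% exact counting interval 46.7 to 669). The other gelatinase, Mmp9, had 0 counts untreated and 3.54 and 3.16 CPM treated, at least 47.3-fold higher. The collagenase gene Mmp13 was an exception and fell from 79.3 and 142 to 17.3 and 20.6 CPM.

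Contractile genes rose in 19 of 24 tested cases and fell in 2 (median 1.16). The tropomyosin gene Tpm1 rose from 719 and 641 to 1534 and 1357 CPM. Cald1, which encodes caldesmon, rose from 933 and 815 to 3151 and 2817 CPM. Tagln, which encodes the smooth muscle protein SM22, rose from 0.628 and 0.51 to 96.5 and 56.7 CPM, and an antisense gene overlaps 67.9% of its exon length. The smooth muscle actin gene Acta2, a marker of myofibroblasts, remained scarce. It went from 0.193 and 0.464 to 10.1 and 5.04 CPM, and its change of 4.49 became 5.25 without untreated replicate 2 and 3.90 without treated replicate 1. Cnn1 (calponin) rose by 0.96 to 5.16 and 4.1 CPM. The genes that fell were Mylk, a myosin kinase gene, by 1.38, and Srf, which encodes serum response factor, by 0.56.

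Among receptor tyrosine kinases and their ligands 17 of 33 rose and 10 fell (median 0.94). The epithelial receptor gene Fgfr2 fell from 175 and 185 to 25 and 25.2 CPM (-2.84, standard error 0.09). Fgfr1, its mesenchymal relative, had 0 counts untreated and 1.72 and 0.776 CPM treated, at least 17.9-fold higher. The neuregulin receptor gene Erbb3 fell from 54.4 and 79.4 to 9.76 and 10.2 CPM. Pdgfrb, a receptor of fibroblasts and pericytes, was nearly silent without TGF-β and rose from 0.435 and 0.418 to 94 and 87.1 CPM. Of EGF receptor ligands, Areg rose from 10.8 and 22.2 to 73 and 90.5 CPM, by 2.31 (2.91 without untreated replicate 2). Btc, another ligand of that receptor, fell from 32.3 and 35 to 3.44 and 3.33 CPM. Hgf, which encodes scatter factor, rose from 0.0966 and 0.139 to 18.3 and 17.8 CPM. Axl, a receptor kinase gene common in mesenchymal tumour cells, rose by 1.82. The collagen receptor gene Ddr2 fell from 26.1 and 23 to 4.75 and 3.77 CPM.

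Wnt and Notch pathway genes counted 12 higher and 5 lower of 23 (median 0.53). Notch receptors diverged. Notch1 fell from 17 and 11.1 to 0.202 and 0.388 CPM. Notch4, known from endothelium, rose from 0.386 and 0.418 to 37.8 and 34.6 CPM. The Notch target Hey1 fell by 1.59. Axon guidance and Eph genes showed no common direction, 13 higher and 10 lower of 33 (median 0.13). Within this list the neuropilin receptors rose and some class 3 semaphorins fell. Nrp1 went from 24.4 and 28.8 to 151 and 155 CPM. Nrp2 went from 40.9 and 42.6 to 351 and 307 CPM. Sema3c went from 672 and 788 to 131 and 114 CPM. A further semaphorin gene, Sema3e, went from 944 and 1015 to 181 and 189 CPM, and Slit3, a secreted guidance factor gene, fell by 3.63.

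Early response and ERK feedback genes were lower in 13 of 27 cases and higher in 7 (median -0.57). The early response factor Egr1 fell from 522 and 695 to 114 and 101 CPM. Its relative Egr2 fell from 35 and 49.3 to 6.93 and 5.71 CPM. The phosphatase gene Dusp1 fell from 310.5 and 336 to 68.9 and 55.1 CPM, and Dusp6, a feedback phosphatase of ERK, fell by 1.26. The ETS factor Etv4 rose by 1.28. Fosl1, an AP-1 subunit gene, stood at 28.2 and 47.7 CPM untreated and 60.7 and 64.6 CPM with TGF-β and was not called without treated replicate 2 (adjusted p = 0.0636), and 57.2% of its exon length is overlapped by an antisense gene.

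Cytokine genes moved in both directions, 8 higher and 9 lower of 23 (median -0.51). Beside Il33, the chemokine gene Ccl20 fell from 65.3 and 53.6 to 2.88 and 3.16 CPM. The neutrophil chemokine Cxcl1 fell from 119 and 127 to 25 and 26.1 CPM. Lif, of the interleukin-6 family, rose from 33.3 and 28.9 to 194 and 180.2 CPM. Csf1, the macrophage growth factor, rose from 97.1 and 50.6 to 280.4 and 243 CPM.

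Of 34 tested interferon response genes 20 fell and 2 rose (median -0.82), against 20.6% called lower over all genes. Ifit3 fell from 6.66 and 7.89 to 0.404 and 0.277 CPM. It has a near-identical copy, Ifit3b, with which reads could be divided, and which fell as well, from 11.5 and 18.7 to 0 and 0.222 CPM. The guanylate binding protein gene Gbp7 fell from 8.16 and 8.58 to 0.152 and 0.0554 CPM. Oasl2 was an exception to the list and rose from 1.35 and 1.21 to 19.8 and 14.7 CPM. MHC class I presentation genes were lower in 8 of 14 cases and higher in 3 (median -0.65). The heavy chain H2-K1 fell from 27.4 and 28.5 to 14.9 and 14.4 CPM. The peptide transporter gene Tap2 fell from 4.97 and 6.08 to 0.506 and 0.942 CPM. The light chain B2m, in contrast, rose from 89.7 and 97.8 to 145 and 134 CPM. Cd274, which encodes the checkpoint ligand PD-L1, fell from 74.8 and 91.7 to 24.3 and 17.1 CPM.

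In ether lipid synthesis and remodelling, the pathway of the disrupted gene, 9 of 19 tested genes fell and 3 rose, Agps among them (median -0.29). Gnpat, whose product precedes AGPS in the peroxisome, stood at 50.3 and 53.6 CPM untreated and 54.6 and 56.6 CPM with TGF-β and was not called (adjusted p = 0.463). Far1, the reductase gene that supplies the fatty alcohol, stood at 188 and 195 CPM untreated and 163 and 158 CPM with TGF-β, a change of -0.25 (adjusted p = 0.0264). Its adjusted p became 0.12 without untreated replicate 2, 0.0652 and 0.12 without treated replicates 1 and 2, and 0.0562 and 0.0555 without treated parental replicates 1 and 2. Larger changes were seen in other members. Chpt1, a phospholipid synthesis enzyme gene, fell from 389 and 388 to 103 and 94.3 CPM. Agmo, whose product cleaves ether lipids, fell from 12.2 and 18.7 to 0.202 and 0.166 CPM. The platelet-activating factor hydrolase subunit gene Pafah1b2 rose by 0.35.

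Peroxisome genes counted 13 lower, 2 higher and 18 not called of 33 (median -0.34), against 20.6% lower and 20.9% higher over all genes. Cat, which encodes the peroxisomal enzyme catalase, fell from 594 and 644 to 148 and 151 CPM, a change of -2.05 (standard error 0.09). Phyh, of phytanic acid breakdown, fell by 1.26. Cholesterol synthesis and uptake genes were lower in 22 of 27 cases and higher in 2 (median -0.62). Hmgcs1, which makes the HMG-CoA used by the pathway, fell from 452 and 567 to 149 and 144 CPM. The demethylase gene Cyp51 fell from 2759 and 3193 to 1380.1 and 1385 CPM. The transcription factor that drives these genes, Srebf2, fell by 0.71.

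Of 33 fatty acid and glycerolipid genes 18 fell and 5 rose (median -0.29). The desaturase gene Fads2 fell from 854 and 874 to 419 and 443 CPM. Acsl4, which activates arachidonate, fell from 1058 and 1384 to 344 and 322 CPM. The fatty acid transporter gene Cd36 fell from 16.6 and 17.4 to 0.101 and 0.166 CPM. Genes that rose included the lipid droplet coat gene Plin2, from 154 and 157 to 541 and 521 CPM. The phosphatidate phosphatase gene Lpin3 rose from 3.24 and 2.13 to 24.1 and 18.3 CPM. Fasn, the fatty acid synthase gene, stood at 601 and 624 CPM untreated and 508 and 522 CPM with TGF-β. Its change of -0.25 was not called without untreated replicate 2 (adjusted p = 0.118), treated replicate 1 or 2 (0.107 and 0.0657) or treated parental replicate 1 or 2 (0.053 and 0.0528).

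Sphingolipid genes had no common direction, 6 higher and 7 lower of 22 (median 0.05), against 20.9% and 20.6% over all genes. The sphingosine phosphate phosphatase gene Sgpp2 fell from 56.5 and 92.6 to 3.79 and 4.1 CPM. The ceramidase gene Acer3 fell from 307 and 354 to 113 and 116 CPM. The sphingomyelin synthase gene Sgms1 rose from 33.5 and 38 to 105 and 100.2 CPM. The ganglioside synthase gene St3gal5 also rose, from 4.93 and 4.69 to 21.9 and 19.7 CPM.

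Retinoic acid and prostaglandin genes were divided, 7 higher and 8 lower of 16 (median -0.78). Ptgs2, the inducible cyclooxygenase gene (ENSMUSG00000032487, GRCm38 chr1:150100031-150108227), rose from 26.1 and 70 to 1352 and 1354 CPM, by 4.81 (standard error 0.37; 5.69 without untreated replicate 2). The treated libraries nearly coincided and the untreated ones differed from each other. The constitutive form, Ptgs1, rose from 137 and 183 to 296 and 311 CPM. Rdh10, which makes retinal from retinol, rose from 48.1 and 48.3 to 477 and 437 CPM. Aldh1a1, which makes retinoic acid from retinal, fell from 109.6 and 108 to 2.98 and 3.49 CPM. The retinal reductase gene Dhrs3 fell from 26.9 and 16.1 to 1.92 and 1.55 CPM.

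NRF2 target, glutathione and NADPH genes were lower in 18 of 30 cases and higher in 4 (median -0.63). Gclc, the rate-limiting enzyme gene of glutathione synthesis, fell from 471 and 745 to 106 and 90.7 CPM. The glutathione transferase gene Gstm1 fell from 43.5 and 58.1 to 2.17 and 3.77 CPM. The malic enzyme gene Me1, a source of NADPH, fell from 314 and 370.5 to 151 and 163 CPM. Hmox1 (heme oxygenase) was an exception and rose from 33.7 and 41.9 to 101 and 112 CPM. Gsto1, of another transferase class, rose from 263 and 284 to 790.3 and 706 CPM.

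Of 18 ferroptosis genes 9 fell and 2 rose (median -0.34), and the falls included genes known to promote and genes known to suppress this form of death. Acsl4, above, is a promoter. The cystine transporter gene Slc7a11, a suppressor, fell from 83.4 and 92.2 to 22.6 and 26.2 CPM. The lysophospholipid acyltransferase gene Mboat1 fell from 308 and 312 to 88.1 and 92.1 CPM. Gpx4, the lipid peroxide reductase gene, stood at 44.4 and 44.2 CPM untreated and 32.8 and 36.3 CPM with TGF-β and missed the threshold (adjusted p = 0.0513, and 0.0305 with the 4 knockout libraries fitted alone). Aifm2, which encodes FSP1, stood at 17.8 and 15.5 CPM untreated and 17.2 and 17 CPM with TGF-β and was not called. Iron genes counted 6 higher and 8 lower of 20 (median -0.07). The transferrin receptor gene Tfrc fell from 962 and 857 to 584 and 501 CPM. The iron exporter gene Slc40a1 fell from 135 and 151 to 40 and 45.2 CPM. Lcn2, which encodes a siderophore binder, fell from 39.8 and 43.9 to 1.47 and 1.11 CPM. The metalloreductase gene Steap4 moved the other way and rose from 22.6 and 14.8 to 163 and 155 CPM.

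Glycolysis and hypoxia genes were lower in 20 of 30 cases and higher in 5 (median -0.52). The glucose transporter gene Slc2a1 fell from 252 and 328 to 104 and 111 CPM. The oxygen sensor gene Egln3 fell from 141 and 181 to 16.7 and 19.3 CPM, and Ldha (lactate dehydrogenase) fell by 0.41. Hexokinase gene Hk2 was an exception and rose from 143 and 181 to 515 and 424 CPM. Among amino acid, monocarboxylate and nucleoside transporters 10 of 18 fell and 3 rose (median -0.46). The lactate transporter gene Slc16a1 fell from 478 and 413 to 113 and 122 CPM.

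Replication and mitosis genes shifted by small amounts, with 21 of 40 lower, 1 higher and no called change as large as 1 (median -0.37). The proliferation marker Mki67 fell from 1083 and 1122 to 744 and 631 CPM. Ccna2 (cyclin A2) fell from 519 and 502 to 380.3 and 343 CPM. The replication clamp gene Pcna fell from 250.3 and 222 to 135 and 154 CPM. The helicase subunit Mcm2 overlapped between groups, at 244 and 203 CPM untreated and 198 and 209 CPM with TGF-β. Of 31 G1 cyclin, inhibitor and p53 target genes 20 fell and 3 rose (median -0.44). Ccnd2 (cyclin D2) fell from 752 and 834 to 184 and 167 CPM. Cdk6, the kinase it binds, fell from 1851 and 1456 to 920.4 and 823 CPM. Trp53inp1, a p53 target, fell from 226 and 270.0 to 74.5 and 65.6 CPM. Cdkn2b, the TGF-β-inducible inhibitor p15, rose from 24.2 and 38.6 to 58.8 and 61.7 CPM.

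Unfolded protein and amino acid stress genes counted 14 lower and 9 higher of 31 (median -0.30). Chaperones of the endoplasmic reticulum were among those that rose. Hspa5 (BiP) went from 1051 and 1282 to 1754 and 1938 CPM. The disulfide isomerase gene Pdia4 went from 219 and 254 to 392 and 425 CPM. Genes of the ATF4 branch were among those that fell, such as the asparagine synthetase gene Asns, from 471 and 537 to 233 and 281 CPM, and Ddit3 (CHOP), by 1.27. Ribosomal protein genes changed little, with 5 of 42 higher and 0 lower (median 0.10). Nuclear-encoded respiratory chain genes counted 1 higher and 5 lower of 39 (median -0.10), against 20.9% higher and 20.6% lower over all genes. Of 7 mitochondrially encoded genes 0 were called, and the share of counts on the mitochondrial genome, 2.36% to 3.96% in the knockout libraries, overlapped between treated and untreated ones.

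Caveola and lysosome genes counted 13 higher and 10 lower of 32 (median 0.06). The cathepsins diverged. Ctsl rose from 66.5 and 81 to 449 and 482 CPM, and an antisense gene overlaps 26.8% of its exon length. Ctsh fell from 165 and 144 to 12.9 and 17.2 CPM. The caveolin genes Cav1 and Cav2 fell by 0.43 and 0.90, and the coat gene Cavin1 rose by 0.41. Of 12 Hox genes tested 4 rose and 1 fell (median 0.04), against 20.9% higher and 20.6% lower over all genes. Hoxb9 rose from 1.64 and 2.41 to 12.7 and 12 CPM. Hoxb13 fell from 4.44 and 4.08 to 1.31 and 1.11 CPM. Luminal and milk secretory genes counted 3 higher and 4 lower of 9 (median 0.12), and Wfdc2, a secreted protease inhibitor gene of epithelia, fell from 292 and 322 to 73.3 and 103 CPM.

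Markers of other cell types were read beside these changes. Of 20 fibroblast and pericyte markers listed 11 were tested, of which 10 rose (median 2.42). Markers near 0 untreated could be tested through their treated libraries, so this count does not describe the whole list. Mcam, of pericytes and endothelium, rose from 1.4 and 0.928 to 36.6 and 29.4 CPM, beside Pdgfrb. Of 25 skeletal muscle and neural markers listed 8 were tested, of which 6 rose. The list summed to 117 and 130.0 CPM untreated and 715 and 691 CPM with TGF-β. Most of the treated sum lay in Chrna1, described above, Tnnt2 and Ncam1. Tnnt2 (cardiac troponin T) rose from 9.42 and 13.1 to 217 and 208 CPM. Ncam1, an adhesion molecule of nerve and muscle, rose from 71.5 and 86.1 to 260.2 and 282 CPM. Leukocyte markers counted 4 higher and 1 lower of 6 tested. Csf1r fell from 29.6 and 31.1 to 7.28 and 6.43 CPM. Cd14 rose from 16.4 and 17.2 to 30 and 29.9 CPM. Cd68, of lysosomes in macrophages, rose from 2.9 and 1.76 to 9.76 and 11.8 CPM. Endothelial markers, 2 of 4 higher, summed to 15.5 and 16.3 CPM untreated and 39.3 and 34.1 CPM with TGF-β. The endothelial cadherin gene Cdh5 stood at 0.241 and 0 CPM untreated and 7.23 and 6.15 CPM with TGF-β and rose, while Pecam1 stayed under 1 CPM in all 4 libraries. Adipocyte markers, 1 higher and 1 lower of 4, summed to 6.32 and 8.57 CPM untreated and 7.58 and 8.8 CPM with TGF-β. The part of other cells in the rise of matrix genes was not tested.

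The knockout response was next compared with that of parental cells, which had its own untreated controls, so that no library was shared. The difference was tested as the knockout change minus the parental change in the same edgeR fit. Of 14641 genes 352 (2.4%) were called, 183 with a more positive change in knockout cells (1.25%) and 169 with a more negative one (1.15%). With each library left out in turn the count lay between 120 and 421, being 120 and 138 without treated parental replicates 1 and 2 and 172 and 122 without treated knockout replicates 1 and 2. Most calls were common to the lines. Of the 6064 genes called in knockout cells 4583 (75.6%) were called in the same direction in parental cells, which is 73.6% of the 6228 called there. A further 34 were called in opposite directions, 28 of which passed the test of the difference. Over all genes tested, 42.5% were called in parental cells in either direction.

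**Figure D4:**
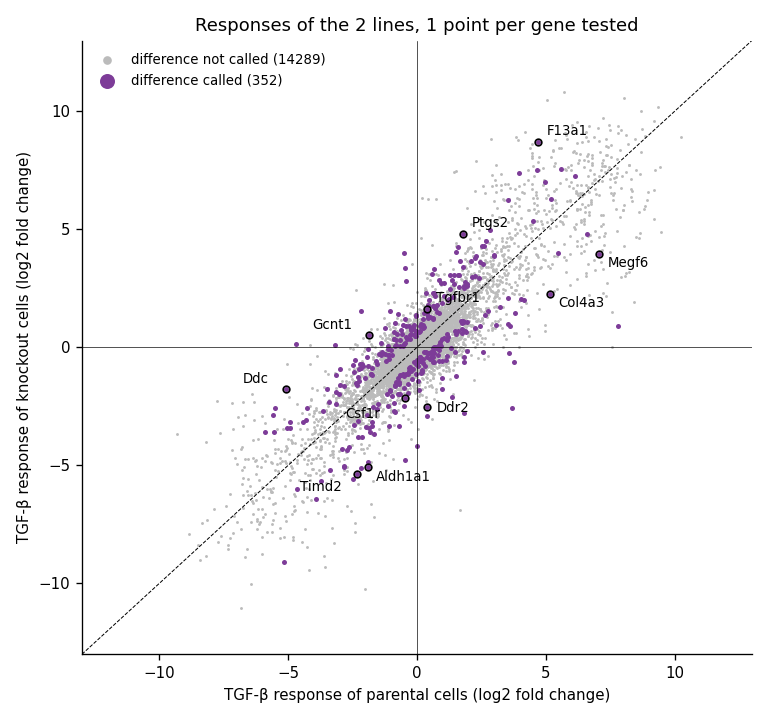
Each point is 1 of the 14641 genes tested, with its TGF-β response in parental cells (log2 fold change, horizontal) and in knockout cells (vertical), the dashed line marking equal responses and purple the 352 genes called in the difference. Most points follow the dashed line, Ptgs2, F13a1 and Tgfbr1 lie above it, and Col4a3, Megf6, Ddr2 and Aldh1a1 lie below it.

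The difference was called in 2 of 22 tested ligand and receptor genes of the TGF-β family, Tgfbr1 and Tgfb2. It was called in 2 of 10 storage and elastic fibre genes, Ltbp1 and Fbln2, against 2.4% over all genes. Tgfbr1 went from 148 and 144 to 178 and 208 CPM in parental cells and rose more in knockout cells, a difference of 1.22 (standard error 0.13, adjusted p = 9.79e-04). Ltbp1 went from 8.43 and 7.91 to 299 and 308 CPM in parental cells, and the difference was 1.08 (standard error 0.14). Itgb6 stood at 42.8 and 41.9 CPM untreated and 33.5 and 33.8 CPM with TGF-β in parental cells, and the difference was -1.59 (standard error 0.14). Tgfbr2 fell in both lines, with changes of -1.69 in knockout and -1.40 in parental cells, and the difference was not called (adjusted p = 0.292). Fbln2 rose more in knockout cells (from 25 and 24.4 to 1683 and 1764 CPM in parental cells, a difference of 1.14). Beyond these lists, Fgfr2 fell more in knockout cells (from 147 and 152 to 38.6 and 38.9 CPM in parental cells, a difference of -0.90).

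Both cyclooxygenase genes differed between the lines in their change, while their starting levels were not tested against each other. Ptgs2 stood at 328 and 484 CPM untreated and 1566 and 1271 CPM with TGF-β in parental cells. The treated libraries of both lines were thus at similar levels and the untreated knockout libraries were the low ones. The difference of responses was 3.01 (standard error 0.46, adjusted p = 0.00732), and 3.89 without untreated knockout replicate 2. Ptgs1, which rose in knockout cells, was not called in parental cells (199 and 257 CPM untreated and 185 and 179 CPM with TGF-β). Its difference of 1.25 was not called without treated knockout replicate 2 (adjusted p = 0.0549).

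Among genes called both in knockout cells and in the difference, with a mean log2 CPM of 3 or more, the 8 largest positive differences were those of F13a1 (3.99, with 7 counts in the untreated knockout libraries), Ddc (3.32), Ptgs2, Add2 (2.84), Ffar4 (2.72), Mmp10 (2.68), Mrc1 (2.55) and Gcnt1 (2.36). Ddc, which encodes aromatic amino acid decarboxylase, fell from 17 and 14.2 to 4.3 and 4.82 CPM in knockout cells and from 18.9 and 21.8 to 0.477 and 0.715 CPM in parental cells. Gcnt1, a glycosyltransferase gene, stood at 25.3 and 31.6 CPM untreated and 43 and 38.1 CPM with TGF-β in knockout cells. In parental cells it moved the other way, from 68.8 and 62.7 to 19.5 and 17 CPM. The knockout rise of Gcnt1 was not called without untreated replicate 1 (adjusted p = 0.0657) or treated replicate 1 (adjusted p = 0.0766), while its difference was called with each library left out, as were those of Ddc and Add2. Without untreated knockout replicates 1 and 2 the difference of F13a1 became 3.27 and 5.64, and it was not called without untreated parental replicate 1 (adjusted p = 0.0533). That of Add2 became 3.45, that of Mmp10 3.50 and that of Mrc1 3.43 without untreated knockout replicate 1. Ffar4 was not called without treated parental replicate 1 (adjusted p = 0.0957) or treated knockout replicate 2 (0.0549). Mmp10 was called with only 2 of the 8 libraries left out, untreated knockout replicate 1 and treated knockout replicate 2, and had an adjusted p of 0.0652 to 0.159 without the others. Mrc1 was called with any of 3 left out, both untreated knockout libraries and untreated parental replicate 2, and had an adjusted p of 0.0521 to 0.148 without the others.

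Among the same genes the 8 largest negative differences were those of Ugt2b36 (-3.93, with 2 counts in the treated knockout libraries), Aldh1a1 (-3.18), Megf6 (-3.12), Timd2 (-3.05), Atp2a3 (-2.95), Ddr2 (-2.90), Col4a3 (-2.89) and Col4a4 (-2.55). Aldh1a1 started at similar levels in both lines and went from 98.4 and 121 to 28.4 and 30.4 CPM in parental cells, which left more of it than in knockout cells. Megf6, which encodes a protein with EGF-like repeats, rose from 2.56 and 1.44 to 26.8 and 35.2 CPM in knockout cells and from 1.16 and 0.937 to 150.0 and 135 CPM in parental cells. Col4a3, which shares a promoter region with its neighbour Col4a4, rose from 5.01 and 4.8 to 172 and 182 CPM in parental cells. Col4a4 rose from 6.64 and 8.67 to 88 and 88.6 CPM there. Treated knockout libraries thus held less of both chains than treated parental ones. Ddr2, the collagen receptor gene that fell in knockout cells, was not called in parental cells (24.7 and 41 CPM untreated and 40.8 and 44.7 CPM with TGF-β, adjusted p = 0.139). Csf1r also fell more in knockout cells, with 31.3 and 30.6 CPM untreated and 21.6 and 23.1 CPM with TGF-β in parental cells and a difference of -1.67. With each library left out in turn the differences of Aldh1a1, Megf6, Timd2, Ddr2, Col4a3, Col4a4 and Csf1r were called. That of Ugt2b36 was not called without treated parental replicate 2 (adjusted p = 0.0671) or treated knockout replicates 1 and 2 (0.12 and 0.142). That of Atp2a3, an endoplasmic reticulum calcium pump gene, was not called without any 1 of the 4 treated libraries (adjusted p = 0.0968 to 0.212) and became -3.69 without untreated parental replicate 2.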

How the data were processed

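Polyadenylated RNA of 8 libraries in 4 groups of 2 was analysed from the files the authors deposited, which hold raw counts, whole numbers for 55450 identifiers, all found in the GENCODE M21 annotation. STAR 2.7.1a, featureCounts 1.6.2, DESeq2 1.26.0 and the mouse build GRCm38 (mm10) are named per the submitters' processing notes. The annotation release and strand setting are not given in those sources. The authors' normalized table was not used, and 0 other per-sample columns were present.

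A gene was tested if it passed filterByExpr of edgeR (minimum count 10, by group), and the 14641 tested genes hold 99.9% of counts. All 8 libraries entered 1 quasi-likelihood fit (edgeR 4.0.16 under R 4.3.3, TMM scaling, a mean per group, 4 residual degrees of freedom), with Benjamini-Hochberg adjustment over all genes tested in each contrast. Standard errors come from the F statistic. For a bound, a group with 0 counts was given 3. With 1 to 3 counts, a 95% interval of the ratio was taken from the exact binomial distribution. Both cover counting error only. Motifs were searched in RefSeq promoters, matched by symbol for 9950 tested genes.

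Named genes are Agps, key members of 51 lists, up to 3 called members of each list in each direction, the 12 largest rises and falls by fold and by CPM, and the 8 largest differences between lines in each direction, the last 3 at a mean log2 CPM of 3 or more. Some genes selected this way are left out. The members and lists were chosen with earlier results of these data known. Alternatives were other scalings and count filters, DESeq2 1.42.0, voom of limma 3.58.1, a replicate block, each library left out in turn and the 4 knockout libraries alone.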

Additional observations from a re-analysis of the deposited data

Results flagged for a closer look

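Of the genes named in the report, 53 passed edgeR's quasi-likelihood test of the difference between the knockout and the parental response after Benjamini-Hochberg adjustment over all genes. The values in parentheses are the knockout log2 fold change minus the parental one. Since the genes were chosen by that test, refits that reuse most of the same libraries are not a separate check of their sign. Genes that rose in both lines and more in knockout cells were F13a1 (3.99), Ptgs2 (3.01), Add2 (2.84), Mmp10 (2.68), Steap4 (1.5), Tgfbr1 (1.22), Fbln2 (1.14), Ltbp1 (1.08), Hmga2 (0.97), Nrp2 (0.83), Nrp1 (0.70) and Clu (0.56). Genes that fell in both lines and less in knockout cells were Ddc (3.32), Ffar4 (2.72), Myo5b (1.33), Muc1 (1.05), Me1 (0.66) and Itgb4 (0.60). Genes called as rises in knockout cells and not called in parental cells were Mrc1 (2.55), Areg (1.69), Ptgs1 (1.25), Cd14 (0.97) and F11r (0.52). The difference of F11r lost its call whichever library was left out.

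Genes called higher with TGF-β in knockout cells and lower in parental cells were Gcnt1 (2.36), Fosl1 (1.35) and Agps (0.73), of which Agps is the disrupted gene. Krt8, not called in knockout cells, fell in parental cells (0.65). In the other direction, genes that rose in both lines and less in knockout cells were Megf6 (-3.12), Col4a3 (-2.89), Col4a4 (-2.55), Cnn1 (-2.11), Mcam (-1.77), St3gal5 (-1.44), Tnc (-1.21), Tpm1 (-0.85) and Cdh2 (-0.72). Genes that fell in both lines and more in knockout cells were Ugt2b36 (-3.93), Aldh1a1 (-3.18), Notch1 (-3.09), Timd2 (-3.05), Atp2a3 (-2.95), Lcn2 (-2.19), Csf1r (-1.67), Itgb6 (-1.59), Btc (-1.56), Ccl20 (-1.38), Perp (-1.34), Sema3e (-0.91), Fgfr2 (-0.90) and Trp53inp1 (-0.77). Genes that fell in knockout cells and were not called in parental cells were Ddr2 (-2.90), Cdk6 (-0.79) and Tgfb2 (-0.69).

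All 53 differences kept their sign with each of the 8 libraries left out in turn, and 21 also stayed called each time. Without treated parental replicates 1 and 2, 26 and 26 of the 53 were not called, without treated knockout replicates 1 and 2, 23 and 27, without untreated parental replicates 1 and 2, 12 and 4, and without untreated knockout replicates 1 and 2, 8 and 6.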

How the results depend on the processing

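The count of genes called in the knockout response lay between 4701 and 6691 over all alternatives, and 0 genes called in both fits changed sign. With the 4 knockout libraries fitted alone it was 5594, where Agps, Far1 and Fasn lost and Gpx4 and Id1 gained a call, and with DESeq2 5395. The count of genes whose response differed between lines was less stable. Against 352 it was 855 with no filter on low counts, 679 with a replicate block and 120 to 421 with each library left out in turn. Same-numbered libraries' deviations from their group means had positive correlations over all pairs of groups, from 0.02 to 0.31. The highest, 0.31, was between the untreated groups, and that of the knockout groups was 0.15. The labels state no pairing, so the numbers were not taken as pairs. The block gave 6691 calls for the knockout response, and its 679 differences included all 352. Whether same-numbered libraries share a batch was not tested. Of the named genes, 7 lost their knockout call without treated knockout replicate 1, 4 without treated replicate 2, 2 without untreated replicate 1 and 4 without untreated replicate 2, and each is given in the report. The promoter share of CACCTG was 18.8% in place of 16.7% for genes called higher and 25.3% in place of 19.7% for genes called lower when a change of at least 1 was also required. With 2 libraries a group, the cause of these shifts was not tested.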
